A study of Mus musculus with 18 samples.

Results

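The genes described here are the p53 gene itself and 9 of its established transcriptional targets, 10 genes in all of the 47729 counted: *Trp53*, *Cdkn1a*, *Mdm2*, *Ccng1*, *Bax*, *Bbc3*, *Phlda3*, *Trp53inp1*, *Sesn2* and *Gdf15*. They form a list of names, with no threshold on these data but drawn up with earlier results of them known, and all 10 were found and tested in every comparison. RNA was sequenced from the colon of 9 mice in 3 groups of 3: naive WT mice (mice 1 to 3), WT mice with colitis-associated cancer (WT CAC, mice 4 to 6) and *Cldn2*TG mice with colitis-associated cancer (*Cldn2*TG CAC, mice 7 to 9). Each of the 9 libraries is taken as 1 mouse, which the labels do not state. CAC was induced by 1 injection of azoxymethane (AOM, 10 mg/kg), a carcinogen that alkylates DNA, followed by 3 cycles of 2.5% dextran sulfate sodium (DSS), which injures the colon epithelium. All mice had a C57BL/6 background, and *Cldn2*TG mice carry claudin-2 under the villin promoter, which is active in intestinal epithelium. The deposited treatment text is the same for all samples, so the naive mice were identified by their control label, and their age was not given in the sources used here. A naive *Cldn2*TG group was not analysed here, so an effect of the transgene without AOM/DSS cannot be told apart from its effect in CAC.

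p53 is a transcription factor that cells hold at a low level until DNA damage or another stress stops its degradation by MDM2. Stabilized p53 binds paired half-sites in DNA and switches on genes that halt the cell cycle, trigger cell death, repair DNA, adjust metabolism and, through *Mdm2*, limit p53 itself. In the intestine it is known for the death and arrest of crypt cells after genotoxic injury, and its loss is a frequent step in colorectal cancer. The level of *Trp53* RNA is not a measure of p53 activity, since the control acts mainly on the protein.

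The promoters of the genes are shown first, because paired half-sites are the sequence that p53 binds. RefSeq promoter sequences of GRCm38.p6 were found for 9 of the 10 genes, *Trp53inp1* being the exception. The 250 bases before each start were searched for 2 copies of the p53 consensus half-site, a 10-base motif that reads alike on both strands, up to 13 bases apart, with at most 2 mismatches in the pair and none at the core C and G, limits set after a first look at the matches. Such a pair was present before 3 of the 9 genes (33.3%), before 3 of 27 other p53 targets (11.1%) and before 1046 of 27025 genes in all (3.87%). The matches follow with 20 bases on each side, 5′ to 3′ on the strand of the gene, and capitals mark the half-sites of the pair with the fewest mismatches and then the smallest gap.
*Cdkn1a*, chr17:29090886-29090957, plus strand: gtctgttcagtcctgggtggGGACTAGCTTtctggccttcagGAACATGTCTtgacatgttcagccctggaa
*Ccng1*, chr11:40755442-40755501, minus strand: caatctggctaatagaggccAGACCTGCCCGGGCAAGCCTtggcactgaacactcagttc
*Bax*, chr7:45467059-45467119, minus strand: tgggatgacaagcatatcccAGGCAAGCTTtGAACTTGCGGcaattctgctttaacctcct
The pair of *Cdkn1a* had 0 mismatches with 12 bases between the half-sites and ended 42 bases before the start, and a pair with no gap and 1 mismatch, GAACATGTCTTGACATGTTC, overlapped it. These pairs lie before the start at the beginning of the annotated span of *Cdkn1a*. RefSeq gives another start of *Cdkn1a* further downstream, whose window held no pair and no perfect half-site. The pair of *Ccng1* had 1 mismatch and no gap, and that of *Bax* had 2 mismatches and a gap of 1 base. Each of these was overlapped by another pair with 2 mismatches and a gap of 5 bases, AGGCCAGACCtgcccGGGCAAGCCT at *Ccng1* and TGACAAGCATatcccAGGCAAGCTT at *Bax*. *Mdm2* and *Trp53* held a single perfect half-site, which 8.2% of genes had at least once and 5 of the 9 genes (55.6%) had here, again in capitals.
*Mdm2*, chr10:117710915-117710964, minus strand: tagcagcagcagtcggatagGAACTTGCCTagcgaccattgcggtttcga
*Trp53*, chr11:69580264-69580313, plus strand: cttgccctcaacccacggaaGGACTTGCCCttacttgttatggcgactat
No pair and no perfect half-site was found in the windows of *Bbc3*, *Phlda3*, *Sesn2* and *Gdf15*, which says only that these letters are not in these windows. The 100 bases before the start are given for the genes with the largest differences between groups, and for *Gdf15*, which has 2 starts in RefSeq, the start at the end of its annotated span is the one shown.
*Phlda3*, chr1:135765985-135766084, plus strand: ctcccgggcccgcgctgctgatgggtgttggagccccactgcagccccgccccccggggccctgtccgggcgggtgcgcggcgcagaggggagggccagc
*Gdf15*, chr8:70632457-70632556, minus strand: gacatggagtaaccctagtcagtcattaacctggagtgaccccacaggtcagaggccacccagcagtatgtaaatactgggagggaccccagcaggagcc

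Total counts were 14142711 to 22262546 per mouse, so that a count of 0 allowed up to 0.135 to 0.212 CPM (counts scaled to the library total) before scaling, a limit that covers counting error only. The CPM given below are further scaled by TMM factors. The colon epithelium markers were abundant in all mice, with a summed level of 7 markers of 11100 to 15000 CPM. *Cldn2* measured 191, 259 and 245 CPM in naive WT mice, 119, 137 and 132 CPM in WT CAC mice and 208, 218 and 251 CPM in *Cldn2*TG CAC mice. It was thus higher in every *Cldn2*TG CAC mouse than in the WT CAC mice (log2 fold change 0.78, SE 0.12, adjusted p-value 0.0103 by edgeR's quasi-likelihood test) but not than in naive WT mice (log2 fold change -0.03, SE 0.12, adjusted p-value 0.897 by the same test). In 2 mice the library stood apart from its group. WT CAC mouse 4 differed from mice 5 and 6 by 66.3 and 65.3 times the sampling noise (chi-square per degree of freedom), against 16.8 to 31.9 for the other pairs within groups. Naive WT mouse 1 had 214 CPM of *Xist*, the RNA of the inactive X chromosome, against at most 0.203 CPM in the other 8 mice. Mitochondrial genes took 2.86% to 3.5% of counts in naive WT, 3.54% to 4.69% in WT CAC and 4.57% to 5.76% in *Cldn2*TG CAC mice. This share thus moved with the groups in each comparison of CAC with naive WT mice. Its part in the differences of *Bax*, *Bbc3*, *Phlda3* and *Mdm2* was not tested.

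Per kilobase of exon, the 10 genes covered a wide range of levels. *Cdkn1a* was the highest at 149 ± 21.8 CPM per kilobase (SD, n = 3) in naive WT mice, followed by *Bax* at 56.2 ± 4.99, *Ccng1* at 32.9 ± 3.27, *Trp53* at 15.4 ± 1.4 and *Trp53inp1* at 10.7 ± 1.6 CPM per kilobase. These 5 levels did not overlap between neighbours in naive WT mice. The remaining 5 genes lay close together: *Bbc3* at 8.24 ± 1.12, *Mdm2* at 6.89 ± 0.473, *Gdf15* at 5.67 ± 1.77, *Phlda3* at 4.93 ± 0.944 and *Sesn2* at 4.24 ± 1.03 CPM per kilobase, and each of these overlapped its neighbour. In WT CAC mice *Phlda3* stood at 18 ± 11 CPM per kilobase and *Gdf15* became the lowest of the 10 at 2.9 ± 0.751 CPM per kilobase.

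**Figure D1:**
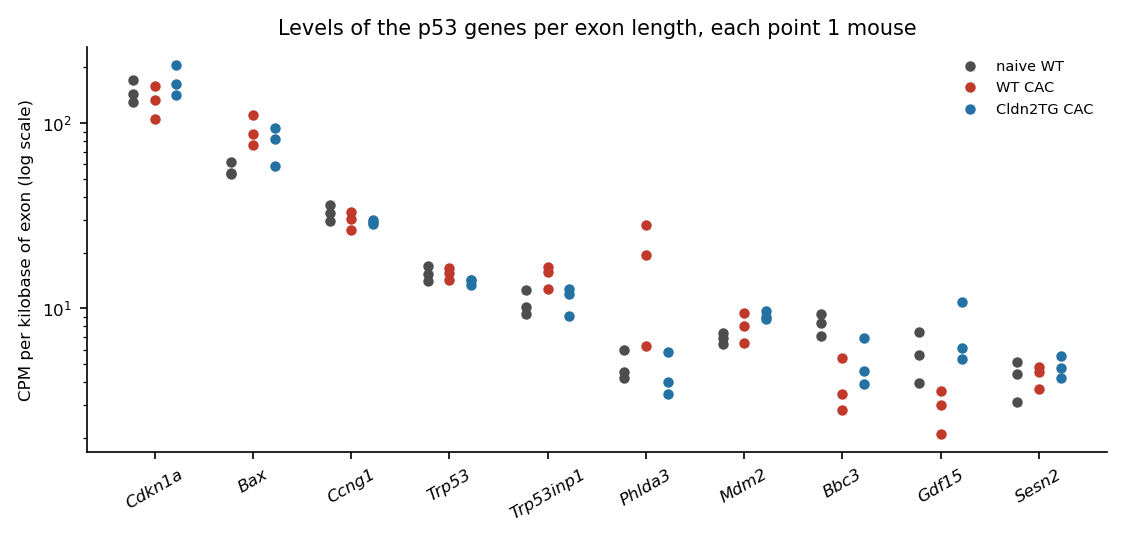
CPM per kilobase of exon on a log axis for the 10 p53 genes, each point 1 mouse and each color 1 group, with genes ordered by their mean over the 9 mice. *Cdkn1a* stands highest in all groups, and the points of *Phlda3* in WT CAC mice spread from 6.29 to 28.2 CPM per kilobase.

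AOM/DSS treatment of WT mice went with a mixed picture: of the 10 genes, *Bax* and *Phlda3* were called higher in WT CAC mice than in naive WT mice and *Bbc3* lower. A gene is called when its adjusted p-value is under 0.05 by edgeR's quasi-likelihood test with Benjamini-Hochberg adjustment over all genes tested. Among all 15437 genes tested, 8.04% were called higher and 6.92% lower, beside 2 and 1 of the 10. In 5 of the 10 genes the groups did not overlap, beside 38% of all genes. The median log2 fold change was 0.04 over the 10 genes and 0.02 over all genes. At an unadjusted p under 0.05 there were 5 of 10 genes, beside 32.6% of all genes, by the same test.

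*Cldn2*TG CAC mice differed from WT CAC mice by a call in 1 of the 10 genes, *Gdf15*, which was higher. Of all 14888 genes tested, 2.19% were called higher and 7.35% lower, and the groups did not overlap in 28.5%, beside 3 of the 10 genes. Against naive WT mice, *Cldn2*TG CAC mice also had 1 call, *Mdm2*, which was higher. In that comparison 3.92% of 15013 genes were called higher, 6.07% were called lower and 31.2% did not overlap, beside 2 of the 10. Median log2 fold changes over the 10 genes were 0.03 and 0.14 in these comparisons, beside 0.01 and 0.00 over all genes. Each group enters 2 of the 3 comparisons, so these are not independent of each other.

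**Figure D2:**
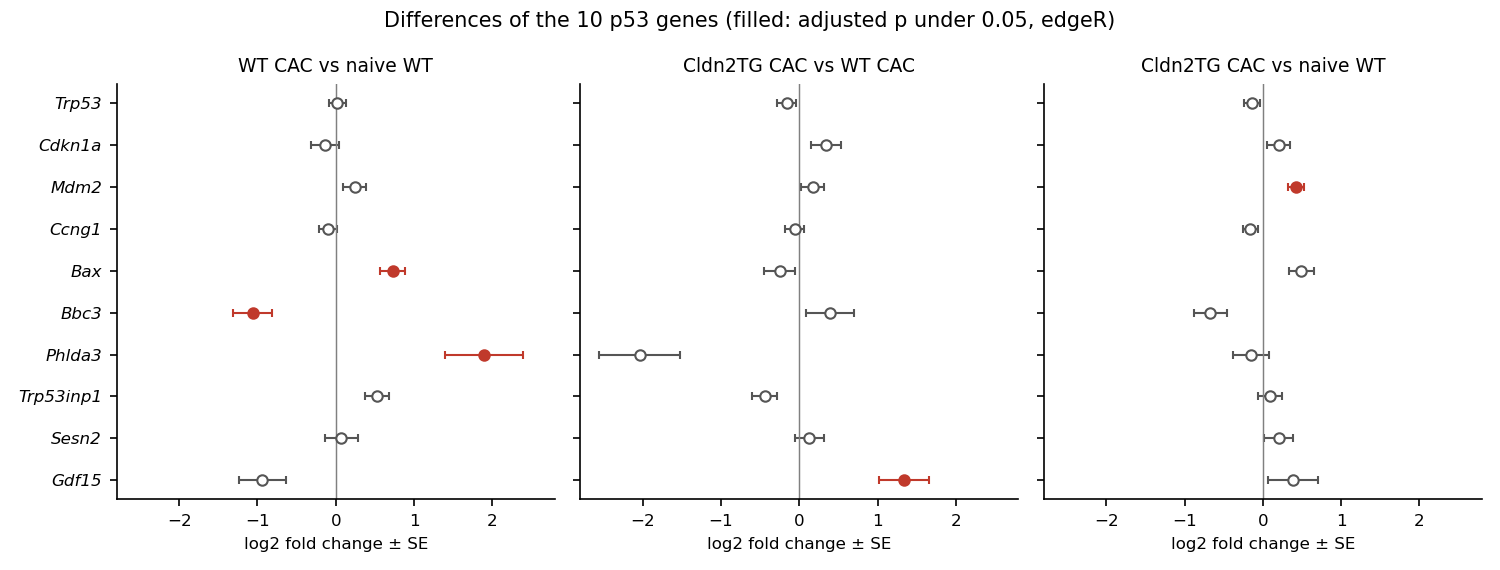
Log2 fold change (x axis, bars are the SE) of the 10 p53 genes in the 3 comparisons, with filled red points for an adjusted p-value under 0.05. The called genes are *Bax*, *Bbc3* and *Phlda3* in WT CAC against naive WT mice, *Gdf15* in *Cldn2*TG CAC against WT CAC mice and *Mdm2* in *Cldn2*TG CAC against naive WT mice.

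*Trp53* (chr11:69580359-69591873, plus strand) encodes p53. It measured 62.1, 57.0 and 68.3 CPM in naive WT mice, 57.4, 62.7 and 66.8 CPM in WT CAC mice and 53.9, 57.6 and 57.8 CPM in *Cldn2*TG CAC mice. The groups overlapped in all comparisons. Its log2 fold change in WT CAC against naive WT mice was 0.02 (95% interval -0.24 to 0.29, adjusted p-value 0.915 by edgeR). For *Cldn2*TG CAC mice the value was -0.16 (-0.43 to 0.10) against WT CAC mice and -0.14 (-0.36 to 0.08) against naive WT mice.

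*Mdm2* (chr10:117688888-117710758, minus strand), the ubiquitin ligase that marks p53 for degradation and is itself induced by p53, measured 37.2, 35.1 and 32.4 CPM in naive WT mice. Its level was 32.9, 48.1 and 40.8 CPM in WT CAC mice and 49.3, 44.4 and 45.8 CPM in *Cldn2*TG CAC mice. All *Cldn2*TG CAC mice lay above all naive WT mice, whereas WT CAC mice spanned both. *Mdm2* was 1.34-fold higher in *Cldn2*TG CAC than in naive WT mice (log2 fold change 0.42, SE 0.10, adjusted p-value 0.0299 by edgeR), and its log2 fold change between *Cldn2*TG CAC and WT CAC mice was 0.17 (95% interval -0.17 to 0.52). With 1 mouse left out at a time the call was kept without naive WT mouse 1 and otherwise lost, with adjusted p-values of 0.0428 to 0.137 by edgeR, and it was lost with all 9 mice in the fit, on library size alone and in lane 1 alone.

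*Cdkn1a* (chr17:29090979-29100722, plus strand) encodes p21, the inhibitor of cyclin-dependent kinases that carries much of the p53 arrest. It measured 383, 319 and 288 CPM in naive WT mice, 233, 353 and 297 CPM in WT CAC mice and 457, 360.0 and 316 CPM in *Cldn2*TG CAC mice. The lowest mouse was WT CAC mouse 4 and the highest *Cldn2*TG CAC mouse 7, and the groups overlapped in all comparisons. None of the log2 fold changes passed the test: -0.14 (95% interval -0.55 to 0.26) in WT CAC against naive WT mice, 0.34 (-0.09 to 0.77) in *Cldn2*TG CAC against WT CAC mice and 0.20 (-0.14 to 0.54) in *Cldn2*TG CAC against naive WT mice. In bulk tissue such as this, fewer cells of a type and less RNA per cell cannot be told apart.

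*Ccng1* (chr11:40748552-40755311, minus strand) encodes cyclin G1, an early p53 target that feeds back on MDM2. It measured 104, 115 and 127 CPM in naive WT mice, 93.3, 117 and 107 CPM in WT CAC mice and 106, 102 and 99.7 CPM in *Cldn2*TG CAC mice. The groups overlapped throughout, and the log2 fold changes were -0.10 (95% interval -0.39 to 0.18), -0.06 (-0.34 to 0.21) and -0.16 (-0.38 to 0.05) in WT CAC against naive WT, *Cldn2*TG CAC against WT CAC and *Cldn2*TG CAC against naive WT mice. Neither of these cell cycle genes, whose promoter pairs are printed above, had a call in any comparison.

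*Bax* (chr7:45461695-45466898, minus strand), whose protein opens pores in the outer mitochondrial membrane, measured 53.8, 46.1 and 46.6 CPM in naive WT mice. It measured 76.1, 66.2 and 96.4 CPM in WT CAC mice, all above the naive WT mice, and 51.2, 71.7 and 81.6 CPM in *Cldn2*TG CAC mice, of which mouse 7 lay within the naive range. *Bax* rose 1.66-fold in WT CAC mice (log2 fold change 0.73, SE 0.16, 95% interval 0.36 to 1.10, adjusted p-value 0.0255 by edgeR). The log2 fold change of *Cldn2*TG CAC mice was 0.49 (SE 0.16, adjusted p-value 0.082 by edgeR, under 0.05 in 2 of the 6 alternative settings) against naive WT mice and -0.25 (95% interval -0.71 to 0.21) against WT CAC mice. The call in WT CAC mice held in all 6 alternative settings and without any one WT CAC mouse, but was lost without any one naive WT mouse (adjusted p-values 0.0185 to 0.105 over the 6 fits by edgeR).

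*Bbc3* (chr7:16309616-16318205, plus strand) encodes PUMA, a BH3-only protein that sets off BAX-dependent death, and it went the opposite way. Naive WT mice had 14.2, 18.7 and 16.8 CPM, WT CAC mice 5.69, 6.94 and 10.8 CPM and *Cldn2*TG CAC mice 14.0, 9.22 and 7.83 CPM. Every CAC mouse of either genotype lay below every naive WT mouse, although *Cldn2*TG CAC mouse 7 and naive WT mouse 1 were nearly equal. *Bbc3* fell 2.09-fold in WT CAC mice (log2 fold change -1.06, SE 0.25, 95% interval -1.64 to -0.48, adjusted p-value 0.031 by edgeR). The log2 fold change of -0.67 (SE 0.21) in *Cldn2*TG CAC against naive WT mice did not pass (adjusted p-value 0.0723 by edgeR), but did in 3 of the 6 alternative settings. Between the CAC groups it was 0.39 (95% interval -0.31 to 1.09). The call in WT CAC mice held in all 6 alternative settings and without mouse 4 or mouse 6, and was lost without mouse 5 or any one naive WT mouse (adjusted p-values 0.0173 to 0.114 over the 6 fits by edgeR).

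**Figure D3:**
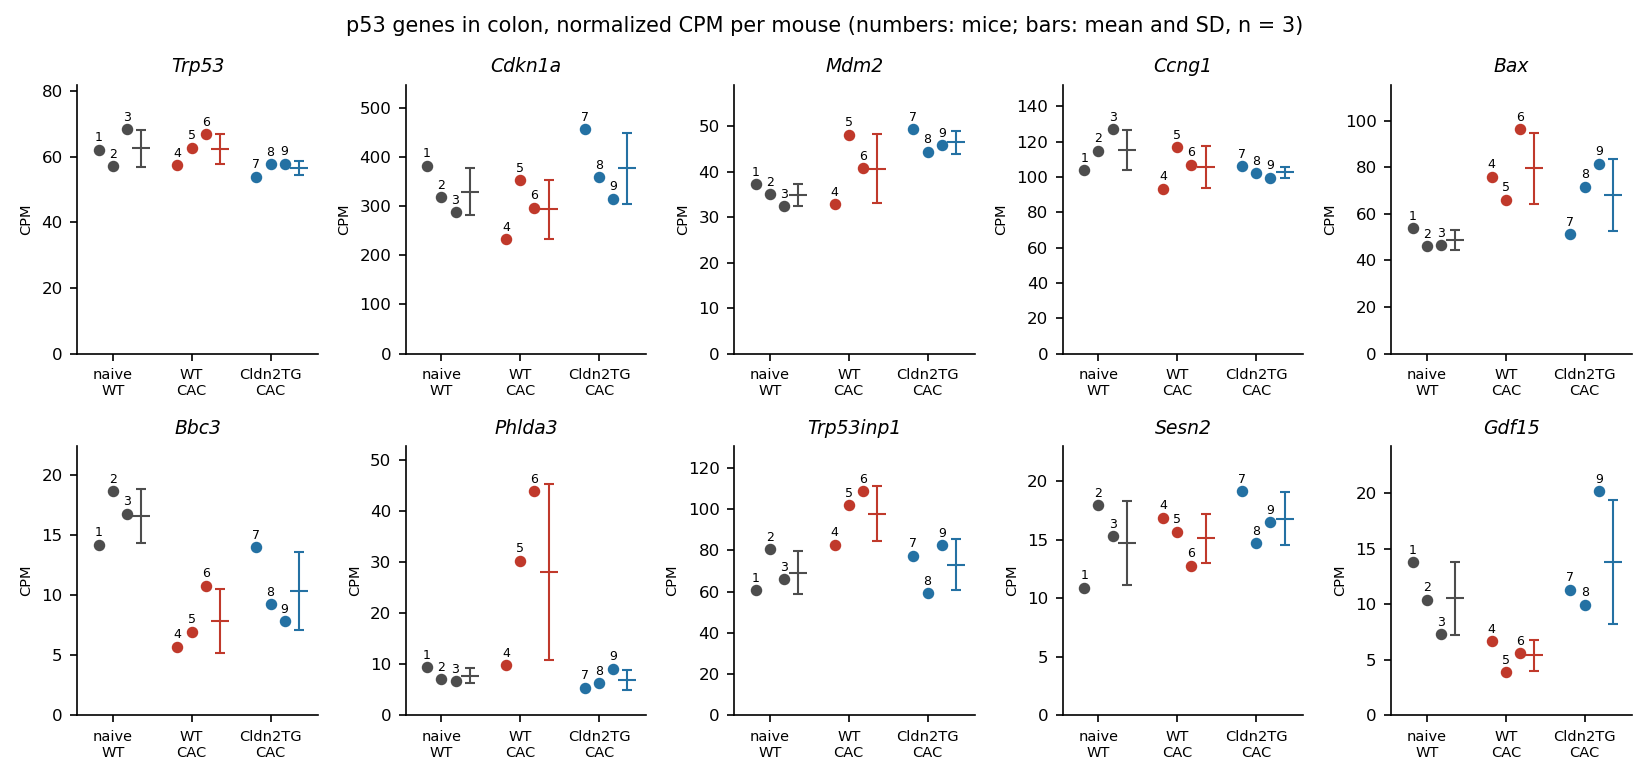
Normalized CPM (y axes from 0, 1 scale per gene) of the 10 p53 genes in each mouse, with mouse numbers above the points and the mean and SD of each group (n = 3) beside them. *Bbc3* is lower in all 6 CAC mice than in naive WT mice, although mouse 7 nearly reaches mouse 1. *Phlda3* is at 30.3 and 44.0 CPM in WT CAC mice 5 and 6 and at 9.8 CPM in mouse 4.

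*Phlda3* (chr1:135766119-135769136, plus strand), a p53 target whose PH-domain protein competes with AKT for membrane lipids, had the largest difference of the 10 genes. It measured 9.36, 7.08 and 6.6 CPM in naive WT mice, 9.8, 30.3 and 44.0 CPM in WT CAC mice and 5.37, 6.23 and 9.09 CPM in *Cldn2*TG CAC mice. Mice 5 and 6 were high, while mouse 4 lay just above the highest naive WT mouse. The gene rose 3.71-fold in WT CAC against naive WT mice (log2 fold change 1.89, SE 0.50, 95% interval 0.71 to 3.08, adjusted p-value 0.0479 by edgeR). It was at 6.9 ± 1.94 CPM in *Cldn2*TG CAC mice beside 28.0 ± 17.2 CPM in WT CAC mice (SD, n = 3 each), a log2 fold change of -2.04 (SE 0.52, 95% interval -3.27 to -0.82) that did not pass (adjusted p-value 0.0546 by edgeR) although the groups did not overlap. *Cldn2*TG CAC mice overlapped naive WT mice, with a log2 fold change of -0.15 (95% interval -0.66 to 0.36). Without mouse 4 both differences to WT CAC mice passed, with adjusted p-values of 0.00058 and 0.000258 by edgeR, whereas without any other mouse neither did (up to 0.156 and 0.198 by edgeR). Each of these differences passed in 3 of the 6 alternative settings, so the call against naive WT mice was lost on library size only, without the filter on low counts and in lane 1 (adjusted p-values 0.0513, 0.169 and 0.0552 by edgeR).

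*Trp53inp1* (chr4:11156431-11174379, plus strand), whose protein promotes p53 phosphorylation and takes part in autophagy, was also highest in WT CAC mice, at a smaller size of difference. It measured 60.6, 80.7 and 66.2 CPM in naive WT mice, 82.8, 102 and 109 CPM in WT CAC mice and 77.5, 59.2 and 82.7 CPM in *Cldn2*TG CAC mice. WT CAC mice lay above both other groups, although mouse 4 and *Cldn2*TG CAC mouse 9 were nearly equal. Neither difference passed: the log2 fold change was 0.53 (SE 0.15, adjusted p-value 0.0529 by edgeR) in WT CAC against naive WT mice and -0.44 (SE 0.16, adjusted p-value 0.139 by edgeR) in *Cldn2*TG CAC against WT CAC mice. Against naive WT mice, *Cldn2*TG CAC mice had a log2 fold change of 0.09 (95% interval -0.24 to 0.41). The first of these passed in 4 of the 6 alternative settings, with adjusted p-values of 0.024 to 0.0596 over the 6 by edgeR or DESeq2, and the second in 0. With 1 mouse left out, each of these 2 differences passed only without mouse 4 (adjusted p-values 0.0138 and 0.0445 by edgeR).

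*Sesn2* (chr4:132492032-132510501, minus strand), a stress sensor that restrains mTORC1 and oxidants, measured 10.9, 18 and 15.3 CPM in naive WT mice, 16.9, 15.7 and 12.8 CPM in WT CAC mice and 19.2, 14.7 and 16.5 CPM in *Cldn2*TG CAC mice. The groups overlapped throughout, and the log2 fold changes were 0.07 (95% interval -0.41 to 0.54), 0.13 (-0.27 to 0.53) and 0.20 (-0.21 to 0.60) in the same order of comparisons as for *Ccng1*. The span of *Sesn2* contains the gene *Gm12981* on the same strand, which had at most 1 count in any mouse.

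*Gdf15* (chr8:70629393-70632456, minus strand) encodes a secreted stress cytokine of the TGF-β family. It measured 13.8, 10.4 and 7.3 CPM in naive WT mice, 6.65, 3.89 and 5.56 CPM in WT CAC mice and 11.3, 9.93 and 20.2 CPM in *Cldn2*TG CAC mice. WT CAC mice were the lowest in each comparison, with no overlap, and *Cldn2*TG CAC mouse 9 was the highest of all. *Gdf15* was 2.53-fold higher in *Cldn2*TG CAC than in WT CAC mice (log2 fold change 1.34, SE 0.32, 95% interval 0.60 to 2.08, adjusted p-value 0.0363 by edgeR). The log2 fold change of -0.94 (SE 0.30) in WT CAC against naive WT mice did not pass (adjusted p-value 0.0711 by edgeR). It did in 2 of the 6 alternative settings and, with 1 mouse left out, only without mouse 4 (adjusted p-value 0.0346 by edgeR). In *Cldn2*TG CAC against naive WT mice the log2 fold change was 0.39 (95% interval -0.34 to 1.13). The call between the CAC groups held in all 6 alternative settings but, with 1 mouse left out, only without mouse 4 (adjusted p-values 0.0145 without it and up to 0.124 otherwise, by edgeR).

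The response outside the 10 genes was examined in 35 further p53 targets, all of which passed the filter on low counts. WT CAC mice had none of these called higher than in naive WT mice and 1, *Btg2*, was called lower, with a median log2 fold change of 0.08, beside 8.04% and 6.92% of all genes called. At an unadjusted p under 0.05 by edgeR there were 7 of 35 (20%), beside 32.6% of all genes. Between the CAC groups *Btg2* was called higher and *Dram1* lower for the transgenic mice (median -0.05), beside 2.19% and 7.35% of all genes. Here 3 of 35 (8.57%) had an unadjusted p under 0.05 by edgeR, beside 23.5% of all genes. Further, in *Cldn2*TG CAC against naive WT mice there was no call by edgeR (median -0.04), with 4 of 35 (11.4%) at an unadjusted p under 0.05, beside 26.0% of all genes, and 1 call each by DESeq2 and without the filter on low counts. *Btg2*, an antiproliferative gene, measured 221, 341 and 189 CPM in naive WT mice, 112, 123 and 119 CPM in WT CAC mice and 210.0, 173 and 210.0 CPM in *Cldn2*TG CAC mice. WT CAC mice lay below both other groups, with log2 fold changes of -1.06 (SE 0.21, adjusted p-value 0.0205 by edgeR) for WT CAC against naive WT mice and 0.72 (SE 0.13, adjusted p-value 0.0131 by edgeR) for *Cldn2*TG CAC against WT CAC mice. *Dram1*, a lysosomal protein of autophagy, was scarce at 1.09 to 1.89 CPM in naive WT mice, 1.63 to 3.62 CPM in WT CAC mice and 0.591 to 1.22 CPM in *Cldn2*TG CAC mice. Between the CAC groups its difference was -1.58 on the log2 scale (SE 0.42, adjusted p-value 0.0479 by edgeR). With 1 mouse left out, 0 to 8 of the 35 were called in WT CAC against naive WT mice and 0 to 5 between the CAC groups, the most in both cases without mouse 4. The count was 0 in 4 of the 6 fits of the first comparison. Calls over all genes went from 2310 to between 135 and 4080 and from 1421 to between 58 and 2894 in the same fits.

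By role, the 9 arrest and signalling targets had 1 call in each comparison with WT CAC mice, which was *Btg2* both times, and the 12 death targets had 1 call in all, *Dram1*, beside the shares of all genes just given. The death targets with the highest levels were *Perp*, a membrane protein of p53-dependent death, and *Ei24*, with log2 fold changes in WT CAC against naive WT mice of 0.31 (adjusted p-value 0.0933 by edgeR) and -0.24 (adjusted p-value 0.162 by edgeR). The 6 DNA repair targets had no call in any comparison by edgeR and 0 at an unadjusted p under 0.05, beside 32.6%, 23.5% and 26.0% of all genes. Between WT CAC and naive WT mice *Pcna*, the DNA polymerase clamp, had a log2 fold change of -0.15 and *Xpc*, which recognizes helix-distorting damage, one of -0.06. The 8 metabolic targets had no call either, with 2, 0 and 3 at an unadjusted p under 0.05 by edgeR in the 3 comparisons (25.0%, 0% and 37.5%, beside 32.6%, 23.5% and 26.0% of all genes). Of these, *Rps27l* and the mTORC1 inhibitor *Ddit4* had the highest levels, with log2 fold changes of 0.21 and 0.58 in WT CAC against naive WT mice (adjusted p-values 0.273 and 0.131 by edgeR).

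**Figure D4:**
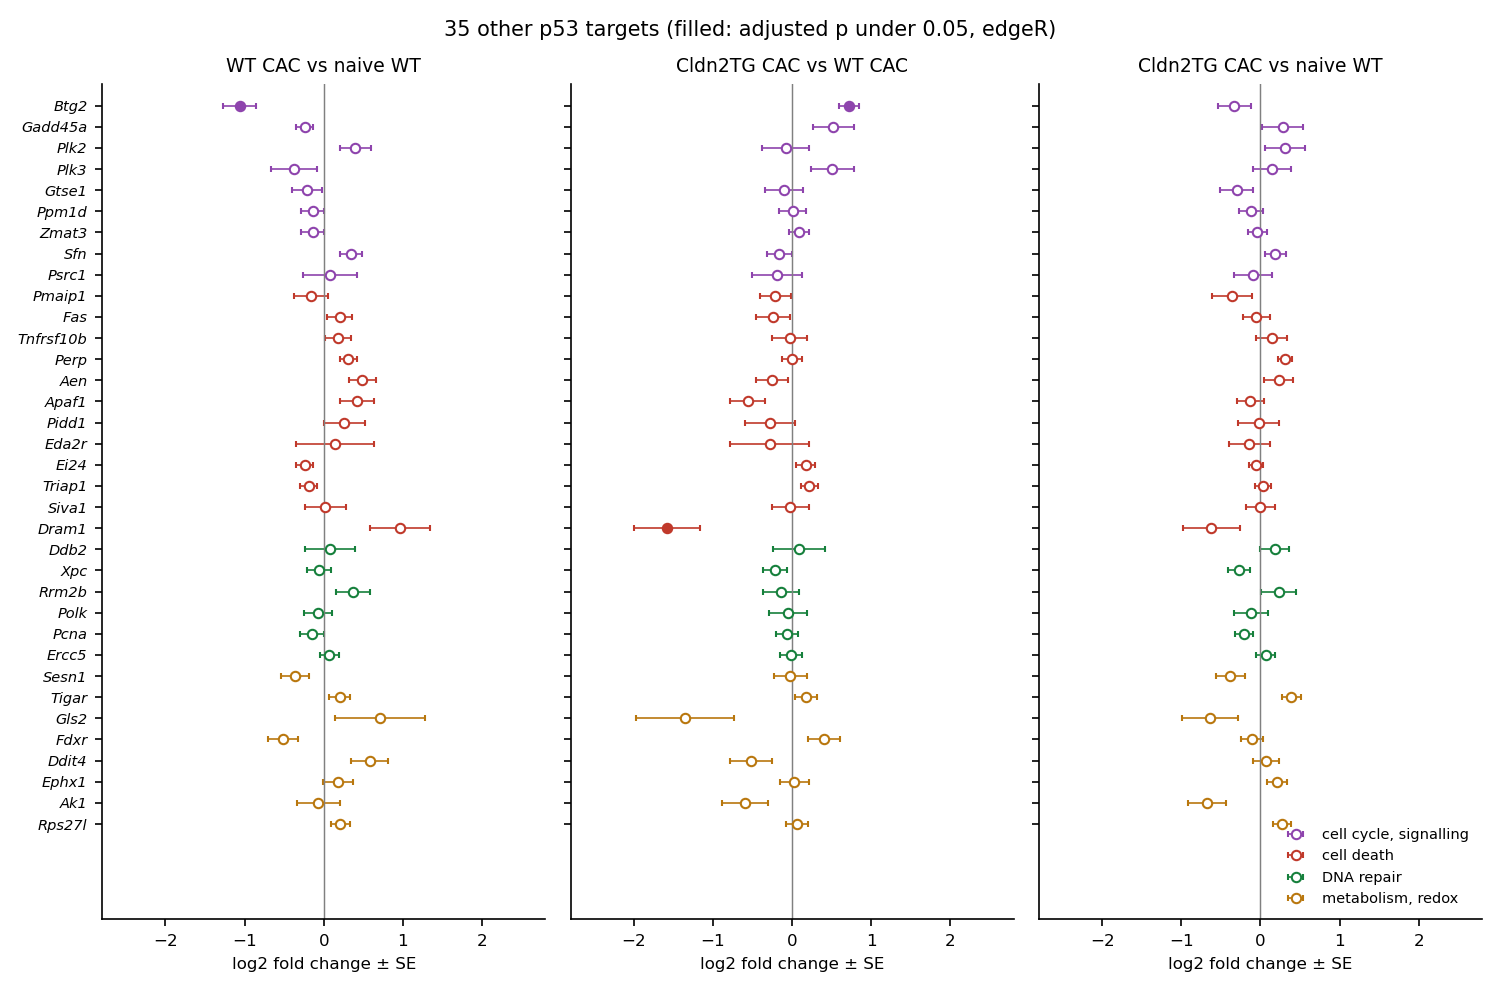
Log2 fold change (x axis, bars are the SE) of 35 further p53 targets in the 3 comparisons, colored by role, with filled points for an adjusted p-value under 0.05. Most points lie near 0, and *Btg2* at -1.06 and 0.72 and *Dram1* at -1.58 are the filled ones.

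Of 14 genes that act upstream of p53 or are its relatives, 11 had enough counts to be tested. *Chek2*, the checkpoint kinase that phosphorylates p53 after double-strand breaks, was the gene called, 1 of 11 beside 6.92% and 6.07% of all genes called lower in the comparisons with naive WT mice, and 2 of 11 (18.2%) had an unadjusted p under 0.05 by edgeR in each, beside 32.6% and 26.0% of all genes. It measured 21.3 ± 0.764 CPM in naive WT, 12.3 ± 1.27 CPM in WT CAC and 15.2 ± 0.375 CPM in *Cldn2*TG CAC mice (SD, n = 3 each), and fell in both CAC groups against naive WT mice (log2 fold changes -0.77, SE 0.14, and -0.48, SE 0.12, adjusted p-values 0.0157 and 0.0281 by edgeR). The most abundant regulators, the deubiquitinase gene *Usp7* and the ubiquitin ligase gene *Cop1*, had log2 fold changes of 0.00 and 0.13 between the CAC groups (adjusted p-values 1 and 0.566 by edgeR). The p53 relatives *Trp63* and *Trp73* had at most 0.133 and 0.405 CPM in any mouse.

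*Cdkn2a*, chosen after its values were seen, encodes p16 and, in another reading frame, p19Arf, the inhibitor of MDM2, and counts per gene do not separate them. It had 0, 1 and 1 counts in naive WT mice, 5, 264 and 311 counts in WT CAC mice 4, 5 and 6, and 1, 3 and 1 counts in *Cldn2*TG CAC mice. In CPM, mouse 4 was at 0.254, mouse 5 at 11.7 and mouse 6 at 20.8. Mice 5 and 6 are the mice in which *Phlda3* was high. The gene was removed by the filter on low counts, since it had enough counts in those mice alone. Without the filter it did not pass by edgeR's quasi-likelihood test (adjusted p-value 0.13 against naive WT mice and 0.209 against *Cldn2*TG CAC mice), whereas DESeq2 called it in both (adjusted p-values 2.56e-08 and 0.000284).

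Genes of cell division, which p53 lowers through p21 and the DREAM complex, were described in a list of 13. All 13 had negative log2 fold changes in WT CAC against naive WT mice (median -0.67), 3 were called lower, beside 6.92% of all genes, and 11 (84.6%) had an unadjusted p under 0.05 by edgeR, beside 32.6% of all genes. *Mki67*, the proliferation marker Ki-67, fell in WT CAC mice (log2 fold change -0.93, SE 0.15, adjusted p-value 0.0116 by edgeR), as did *Ccna2*, cyclin A2 (log2 fold change -0.91, SE 0.21, adjusted p-value 0.0287 by edgeR). Between the CAC groups all 13 log2 fold changes were positive for *Cldn2*TG CAC mice (median 0.25) with no call and 3 of 13 (23.1%) at an unadjusted p under 0.05 by edgeR, which is near the 23.5% of all genes, and *Mki67* had 0.62 (adjusted p-value 0.0899) and *Top2a*, DNA topoisomerase 2α, 0.08 (adjusted p-value 0.926). Against naive WT mice, *Cldn2*TG CAC mice had 2 calls of 13, beside 6.07% of all genes called lower: *Bub1*, a spindle checkpoint kinase, at -0.67 and *Top2a* at -0.59 (log2 fold changes, adjusted p-values 0.0377 and 0.0236 by edgeR). None of the 13 was positive there (median -0.33), and 4 (30.8%) had an unadjusted p under 0.05 by edgeR, beside 26.0% of all genes. *Birc5*, which encodes survivin, had log2 fold changes of -0.40, 0.26 and -0.14 in the 3 comparisons (adjusted p-values 0.183, 0.559 and 0.602 by edgeR). The p21 gene *Cdkn1a* had no call in any of these comparisons, as given above. The part of p53 or p21 in the differences of the 13 genes was not tested.

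Repair of the base damage that AOM causes was described in 8 genes, which had no call in any comparison by edgeR and 0, 1 and 3 genes at an unadjusted p under 0.05 (0%, 12.5% and 37.5%, beside 32.6%, 23.5% and 26.0% of all genes). The median log2 fold changes of these genes were -0.06, 0.06 and 0.15 in WT CAC against naive WT, *Cldn2*TG CAC against WT CAC and *Cldn2*TG CAC against naive WT mice. *Gdf15* and *Sesn2* are also targets of the ATF4 stress pathway, of which 7 genes were examined. *Atf4*, its transcription factor, rose in both CAC groups against naive WT mice (log2 fold changes 0.73, SE 0.11, and 0.54, SE 0.09, adjusted p-values 0.0109 and 0.00807 by edgeR) and had -0.20 between the CAC groups (adjusted p-value 0.375 by edgeR). *Ppp1r15a*, which encodes the phosphatase subunit GADD34, fell in *Cldn2*TG CAC against naive WT mice (log2 fold change -0.72, SE 0.20, adjusted p-value 0.0473 by edgeR). No gene of this list was called between the CAC groups, where *Gdf15* was called. Of the 7 genes, 1 (14.3%) had an unadjusted p under 0.05 by edgeR there, beside 23.5% of all genes. Log2 fold changes ran from -1.95 to 0.58 with a median of -0.20, and 2 of 7 were positive. The value of 0.58 was that of *Atf3*, a stress transcription factor (adjusted p-value 0.677 by edgeR). The part of the ATF4 pathway in the difference of *Gdf15* was not tested.

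Leukocyte markers were higher in WT CAC mice 5 and 6 than in mouse 4. The summed level of 8 leukocyte markers was 13.1 to 28.2 CPM in naive WT mice, 43.3, 113 and 89.4 CPM in WT CAC mice 4, 5 and 6 and 11.4 to 18.7 CPM in *Cldn2*TG CAC mice. Of these, 5 of 8 were called higher in WT CAC against naive WT mice and 5 of 7 tested were called lower in *Cldn2*TG CAC against WT CAC mice, beside 8.04% and 7.35% of all genes, among them *Ptprc*, the pan-leukocyte gene CD45 (log2 fold changes 1.31, SE 0.30, and -1.81, SE 0.24, adjusted p-values 0.0297 and 0.00777 by edgeR). *Phlda3*, *Trp53inp1* and *Dram1* had their highest values in WT CAC mice 5 and 6, as did this sum, in which *S100a8* and *S100a9*, the neutrophil calprotectin genes, measured at most 0.261 and 0.304 CPM in naive WT mice and up to 18.5 and 22.1 CPM in WT CAC mice. These 2 genes passed the filter on low counts through WT CAC mice alone and so had to differ. Without them 3 of 6 leukocyte markers were called higher and 4 of 6 lower. *Bax*, in contrast, was lower in mouse 5 than in mice 4 and 6. The part of leukocytes in the values of these genes, and in the difference of *Gdf15* between the CAC groups, was not tested.

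The summed level of 6 squamous epithelium markers, which colon epithelium normally lacks, was 1.19 to 2.41 CPM in naive WT mice, 19.2, 39.2 and 55.4 CPM in WT CAC mice 4, 5 and 6 and 3.1 to 4.06 CPM in *Cldn2*TG CAC mice. The tested markers were the keratin genes *Krt14*, called higher in WT CAC mice (log2 fold change 3.90, SE 0.42, adjusted p-value 0.00492 by edgeR), and *Krt13*, called higher with 4.75 (SE 0.53, adjusted p-value 0.00541 by edgeR), which passed the filter on low counts through WT CAC mice alone and so had to differ, whereas the basal keratin *Krt5* was at 0.152 CPM or less in every mouse. The order of mice 4, 5 and 6 in this sum was that of *Phlda3* and *Cdkn2a*, and its part in them was not tested. The 6 markers of fibroblasts and endothelium summed to 169 to 228 CPM in naive WT, 231 to 611 CPM in WT CAC and 122 to 154 CPM in *Cldn2*TG CAC mice, with *Col1a1*, a fibroblast collagen, at 54.8 ± 13.8, 87.0 ± 50.2 and 25.8 ± 8.36 CPM (SD, n = 3 each). Of these 6, 3 were called lower in *Cldn2*TG CAC than in WT CAC mice and 3 than in naive WT mice, beside 7.35% and 6.07% of all genes. Between the CAC groups they were led by the collagen gene *Col1a2* and the endothelial cadherin gene *Cdh5* (log2 fold changes -1.79, SE 0.41, and -1.77, SE 0.35, adjusted p-values 0.0406 and 0.018 by edgeR). The 5 smooth muscle markers summed to 1480 to 3110, 760.0 to 2120.0 and 704 to 1080.0 CPM, with *Myh11*, smooth muscle myosin, lower in *Cldn2*TG CAC than in naive WT mice (log2 fold change -1.10, SE 0.22, adjusted p-value 0.0224 by edgeR), and the part of muscle or stroma in the difference of *Mdm2* was not tested. *Epcam*, the defining epithelial gene, had log2 fold changes of 0.16, -0.04 and 0.12 with no call. The 7 epithelium markers went both ways in WT CAC against naive WT mice, with 4 of 7 positive and log2 fold changes from -0.42 (*Cdx2*) to 0.44 (*Krt18*). The keratin gene *Krt8* was the 1 of 7 called in any comparison, beside 3.92% of all genes, being higher in *Cldn2*TG CAC than in naive WT mice (log2 fold change 0.43, SE 0.11, adjusted p-value 0.0384 by edgeR).

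**Figure D5:**
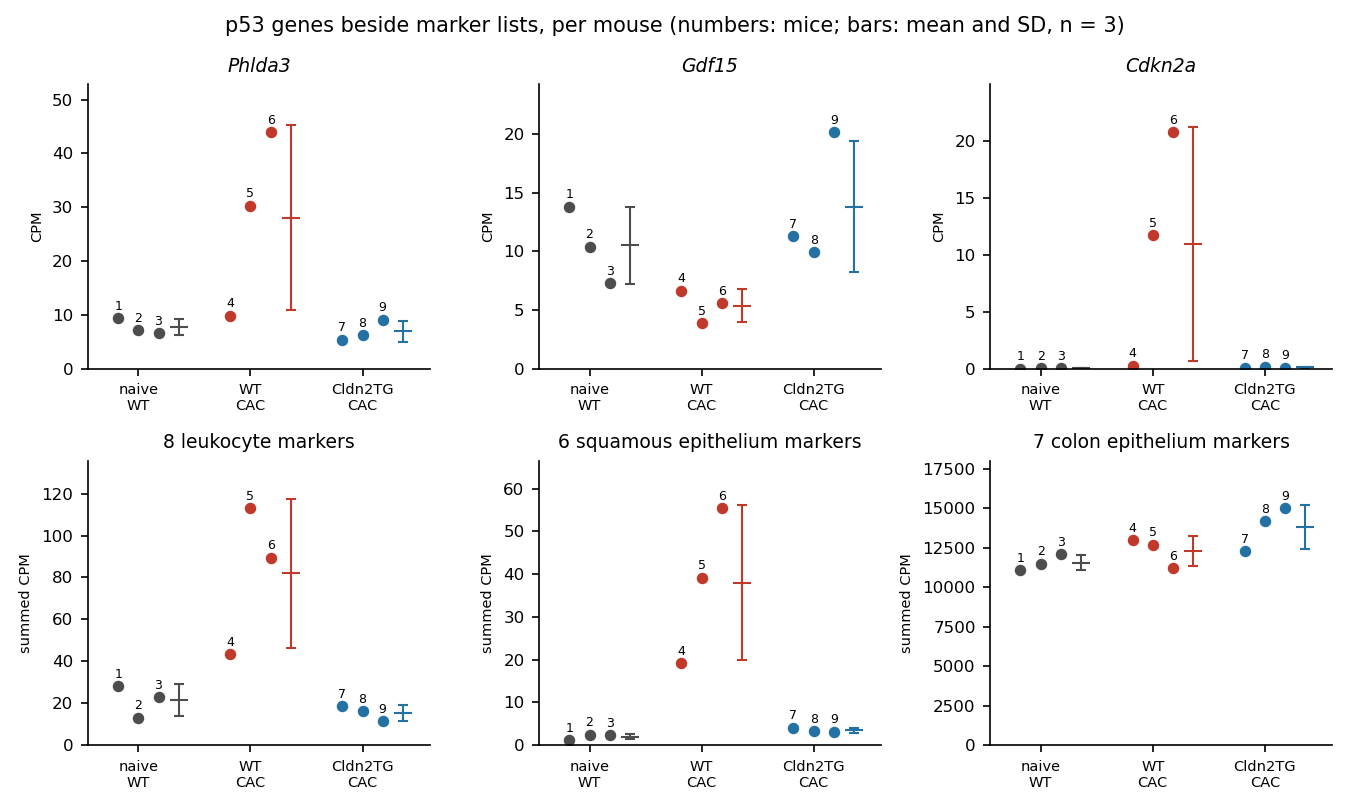
CPM of *Phlda3*, *Gdf15* and *Cdkn2a* and summed CPM of 3 marker lists in each mouse (y axes from 0), with mouse numbers above the points and the mean and SD of each group (n = 3). WT CAC mice 5 and 6 are high in *Phlda3*, *Cdkn2a*, leukocyte and squamous markers, *Gdf15* is lowest in WT CAC mice, and the epithelium markers lie between 11100 and 15000 CPM.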

How the data were processed

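RNA from mouse colon was sequenced on an Illumina NovaSeq. The authors deposited raw, whole-number counts per gene for 2 lanes of each of 9 libraries, made with featureCounts of the Subread package on GRCm38. The study's methods name TopHat2 as the aligner and the submitters' processing notes HISAT2. Versions and the strand setting are not given in the sources used here. Lanes differed by little more than sampling noise (chi-square per degree of freedom 0.995 to 1.057) and were summed. The labels do not say that libraries come from separate animals, and p-values rest on the spread between these libraries.

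Each comparison was fitted on its 6 mice with edgeR 4.0.16 in R 4.3.3 (TMM, filterByExpr with a minimum count of 10, robust quasi-likelihood test, two-sided), after a check on simulated counts. The study used DESeq2, which is an alternative here (1.42.0). CPM used TMM factors over all 9 mice, and exon lengths were those deposited with the counts. An exact permutation test of 3 mice against 3 cannot go below a p-value of 0.1 and was not used for calls. Symbols matched 47224 of 47729 identifiers. The 10 genes and all gene lists were chosen with earlier results of these data known.

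Genes were named by a rule: the 10 genes always; of each further list of p53 targets the called genes of at least 1 CPM, up to 4 per direction, and of other lists up to 2; where a list had no call its 2 most abundant genes; *Cldn2*, *Birc5* and 1 marker per cell type. *Xist*, *Cdkn2a*, *Trp63*, *Trp73*, *Cdx2*, *Krt18* and *Gm12981* were added after their values were seen. The named genes of the list of alkylation repair are not reported here.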

Additional observations from a re-analysis of the deposited data

How the results depend on the processing

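The alternatives were library size only, upper-quartile normalization, no filter on low counts, all 9 mice in the fit, DESeq2, lane 1 only, and leaving out each mouse in turn. Of the 10 genes, 3 were called in WT CAC against naive WT mice, 2 on library size only and in lane 1, where *Phlda3* was lost, 4 without the filter, where *Phlda3* was lost and *Trp53inp1* and *Gdf15* were added, 4 with upper-quartile normalization and with all 9 mice, 5 with DESeq2, and 0 to 5 with 1 mouse left out: 0 without naive WT mouse 1, 2 or 3 and 5 without WT CAC mouse 4. Calls over all genes went from 2310 to 631, 135 and 404 and to 4080 in the same fits. In *Cldn2*TG CAC against WT CAC mice 1 was called, 2 on library size only, with all 9 mice and with DESeq2, and 0 to 3 with 1 mouse left out, 3 without mouse 4 and 0 without any other. In *Cldn2*TG CAC against naive WT mice 1 was called, *Mdm2*, and 1 on library size only, *Bbc3*, with 3 without the filter and with DESeq2 (*Bax*, *Bbc3* and *Mdm2*), 0 with all 9 mice and in lane 1, and 0 to 2 with 1 mouse left out. Of the 35 further targets, the 1 called in WT CAC against naive WT mice became 0 to 8 and the 2 called in *Cldn2*TG CAC against WT CAC mice 0 to 5 with 1 mouse left out, the highest in each case without mouse 4, and the 2 became 1 in lane 1. In *Cldn2*TG CAC against naive WT mice, 0 became 1 without the filter (*Btg2*) and 1 with DESeq2 (*Perp*). The cause was not tested.

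Directions turned for log2 fold changes near 0. *Trp53* in WT CAC against naive WT mice became -0.01 without the filter and -0.05 to 0.08 with 1 mouse left out, and *Sesn2* there -0.11 to 0.23. *Ccng1* between the CAC groups ranged from -0.14 to 0.00. In *Cldn2*TG CAC against naive WT mice *Phlda3* ranged from -0.40 to 0.02 and *Trp53inp1* from -0.01 to 0.21, with -0.03 on library size only, where the median of all genes is -0.11. Over the log2 fold changes of the 10 genes under all alternatives, 303 values kept direction and side of the threshold, 20 gained a call, 28 lost it and 9 turned direction; the counts of calls above are not among them. No paired analysis was possible because the libraries are numbered from 1 to 9 across the groups and share no number.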
